A study of Mus musculus with 4 samples.

Results

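Ccl2, Ccl7, Ccl8 and Ccl12 are the monocyte chemoattractant genes of the mouse CC chemokine cluster, and they were taken by symbol from the gene lists of all 4 count matrices. All 4 genes were found among the 31053 genes of the tables. The study profiled immune cells of the mouse brain after tMCAO (transient occlusion of the middle cerebral artery), in which a brain artery is closed for a time and then reopened to model stroke. The groups were 2 single-cell libraries of C57/BL6 mice taken 14 days after tMCAO and 2 taken 5 days after it. In both groups the ischemic hemisphere was perfused with saline, CD45high cells were sorted, and libraries were made with the 10x Single Cell 3′ v2 kit. The labels do not say whether the 2 libraries of a day came from separate mice, so the p-values measure the spread between libraries, which may be technical, and the sort sets which brain cells are present at all.

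Chemokines are small secreted proteins that attract leukocytes through receptors on the leukocyte surface. Ccl2, Ccl7 and Ccl12 are ligands of Ccr2, the receptor through which inflammatory monocytes leave the bone marrow and enter injured tissue. Ccl2 is the best known of them, Ccl7 also acts on other CC receptors such as Ccr1 and Ccr3, and Ccl12 is a mouse ligand of Ccr2. Ccl8 has been described in the mouse as a ligand of Ccr8. Their transcription is switched on in macrophages by NF-kappa B and interferon signals.

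The 4 genes lie on the plus strand of chromosome 11 in GRCm38 (GENCODE vM21), each with 3 exons. Ccl2 (ENSMUSG00000035385) spans chr11:82035571-82037453, Ccl7 (ENSMUSG00000035373) chr11:82045712-82047525, Ccl12 (ENSMUSG00000035352) chr11:82101845-82103400 and Ccl8 (ENSMUSG00000009185) chr11:82115185-82116799. Together they cover 81.2 kb with 5 coding genes, the remaining one being Ccl11, which lies between Ccl7 and Ccl12. Although they are related, none of the 30-base windows in the last 300 bases of their transcripts was found in a transcript of another gene. The only overlapping gene was Gm17268, antisense to Ccl2, with 0 UMIs.

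Promoter sequence from RefSeq (GRCm38.p6) was available for 2 of the 4 members, and it is shown because Ccl12 and Ccl8 are adjacent genes whose source cells differed in the data below. The 250 bases before each gene's start are printed on the plus strand, 5′ to 3′, with the TATAAA motif in capitals, chr11:82101595-82101844 for Ccl12 and chr11:82114935-82115184 for Ccl8.
Ccl12: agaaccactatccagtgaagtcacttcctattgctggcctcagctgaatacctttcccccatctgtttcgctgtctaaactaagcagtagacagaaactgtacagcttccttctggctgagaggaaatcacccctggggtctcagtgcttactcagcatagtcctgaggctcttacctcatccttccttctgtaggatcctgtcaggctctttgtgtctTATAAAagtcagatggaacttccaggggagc
Ccl8: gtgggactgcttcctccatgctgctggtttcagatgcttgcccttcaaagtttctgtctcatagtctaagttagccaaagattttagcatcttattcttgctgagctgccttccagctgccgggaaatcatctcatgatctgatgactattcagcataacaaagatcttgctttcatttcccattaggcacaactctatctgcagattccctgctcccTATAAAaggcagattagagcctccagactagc
In a global alignment the Ccl12 and Ccl8 windows were identical at 153 of 266 columns (57.5%). TATAAA began 31 bases before the start of Ccl12 and 32 bases before that of Ccl8, and 12.4% of the 32851 promoter windows of the genome held it on either strand. A kappa B form (GGGA and CC with 4 bases of any kind between them) was in neither window on either strand (17.6% of all windows held it), and neither was an interferon response form (GAAA and GAAA with 2 bases between them; 2.98% of all windows). These letter matches are descriptions of the windows only.

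Day 14 libraries held 2583 and 2313 barcodes, those of day 5 held 2543 and 3486, with 9288054 to 13610119 UMIs each (unique molecular identifiers, 1 for each captured RNA molecule) and a median of 2882 to 4230 UMIs per barcode. After filters, 10473 of 10925 barcodes were kept. Library pairs shared 5 to 16 barcodes. Cells were named by gates on marker genes, so the plain class names used here stand for gated, marker-like cells. Each gate below asked for 3 or more UMIs from 2 or more genes of its list (beside C1q), not for every gene. Microglia held C1q genes and genes of the list P2ry12, Tmem119, Fcrls, Gpr34, Sall1, Olfml3 and Sparc. Border macrophages, the resident macrophages of meninges and vessels, held C1q genes and genes of the list Mrc1, Pf4, Cbr2, Lyve1, Cd163, Folr2 and Stab1. Their border list also had to exceed their microglial list. Lyve1 was at 0 CPM (counts per 1000000 UMIs) in the border macrophages of day 14 replicate 1. Monocyte-derived macrophages held C1q genes with genes of the list Ms4a7, Arg1, Fabp5, Gpnmb and Lgals3 and had low microglial and border lists. Other C1q phagocytes met none of these gates, and monocytes held genes such as Ly6c2 and Plac8 without C1q. The border gate took 11 and 8 cells of the day 14 libraries and 31 and 55 cells of the day 5 libraries. In these cells Mrc1 stood at 936 to 1063 counts per 1000000 UMIs (CPM), against 3.36 to 37.8 CPM in microglia. Mrc1 is a gene of the gate, so the gate itself set this contrast. Of genes in no gate, Cd209f stood at 170 to 430 CPM, against 0 to 10.3 CPM in microglia. Ccl24 stood at 116 to 778 CPM, against 1.12 to 11.2 CPM.

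Over all barcodes, Ccl2 had 9279 UMIs in 1824 cells, Ccl7 had 3269 in 567, Ccl8 had 2526 in 546 and Ccl12 had 14092 in 2789. These UMIs were concentrated in few cells: 50% of the UMIs in kept cells lay in 172 cells for Ccl2, 50 for Ccl7, 29 for Ccl8 and 210 for Ccl12. The 5 phagocyte gates (the 4 C1q gates and monocytes) held 53.3% of kept cells, but 88.2% of the Ccl2 UMIs, 91.5% of Ccl7, 87.3% of Ccl8 and 95.5% of Ccl12. T, NK and B cells, which are not usual sources of these ligands, held 23.2% of kept cells and 1.65% of Ccl2, 1.66% of Ccl7, 4.32% of Ccl8 and 1.29% of Ccl12 UMIs. In T cells the share of cells with a UMI was 1.80%, 2.88%, 0% and 1.85% for Ccl2 and 6.31%, 6.25%, 3.64% and 5.56% for Ccl12 (day 14 replicates 1 and 2, then day 5 replicates 1 and 2), at a median of 2202 UMIs per cell, against 2791 in microglia and 4292.5 in monocytes. The T cell shares serve as the level in a class that should lack the ligands. Single T cell barcodes held up to 19 Ccl12 and 18 Ccl8 UMIs, and the source of the UMIs in T cells was not tested.

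The mix of source cells differed between the ligands. Pooled over the 4 libraries, monocytes held 39.0% of the Ccl2 UMIs, followed by microglia with 26.7%. Ccl7 UMIs lay mainly in monocytes (38.3%) and border macrophages (18.2%). Ccl8 UMIs lay in border macrophages (30.6%), microglia (25.2%) and other C1q phagocytes (22.2%), with 4.10% in monocytes. Ccl12 UMIs lay mainly in microglia (66.8%), with 5.19% in monocytes. The border gate supplied these shares from 105 cells.

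The shares differed widely between libraries. Monocytes held 46.2% and 63.2% of the Ccl2 UMIs on day 14, against 36.6% and 11.6% on day 5. Microglia held 54.4% and 31.1% of the Ccl12 UMIs on day 14, against 76.4% and 75.1% on day 5. Border macrophages held 27.1% and 0.482% of the Ccl7 UMIs on day 14 and 10.7% and 45.0% on day 5, so the libraries of a day stood further apart than the days. For Ccl8, border macrophages held 27.8% and 59.9% on day 14, against 20.1% and 10.1% for day 5, and microglia held 4.76% and 4.49% on day 14, against 34.4% and 52.9% for day 5. Border macrophages led for Ccl8 in day 14 replicate 2, where 1 cell held 353 of their 400 Ccl8 UMIs, while microglia led in both day 5 libraries. In day 14 replicate 1, other C1q phagocytes (28.1%, 112 UMIs) and border macrophages (27.8%, 111 UMIs) were nearly level. There 1 border cell held 89 UMIs. Class sizes moved with these shares: microglia made up 8.45% and 4.66% of kept cells on day 14 and 35.2% and 45.9% on day 5.

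**Figure D1:**
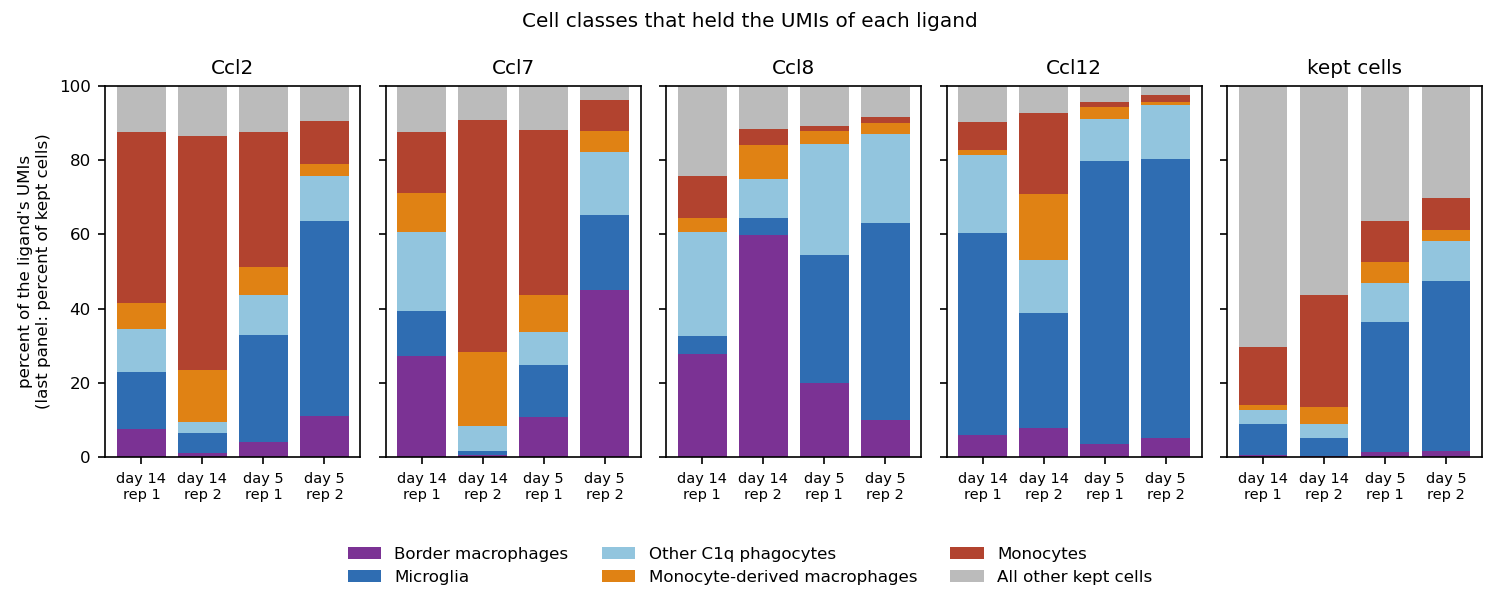
Stacked bars give the percent of each ligand's UMIs in kept cells that lay in each cell class, by library, and the last panel gives the percent of kept cells in each class. Microglia held 54.4% and 31.1% of Ccl12 UMIs on day 14 and 76.4% and 75.1% on day 5, while border macrophages were a thin slice of the cells and 10.1% to 59.9% of Ccl8 UMIs.

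Within classes, levels are given as CPM, the UMIs of the gene per 1000000 UMIs of all cells of the class in a library, in the order day 14 replicates 1 and 2, then day 5 replicates 1 and 2. Ccl8 was the ligand whose level was most uneven across the phagocyte classes. In border macrophages Ccl8 stood at 2878 and 10123 CPM on day 14 and at 1029 and 320 CPM on day 5. In microglia Ccl8 stood at 21.3 and 55.4 CPM on day 14 and at 54.9 and 51.3 CPM on day 5. Every border value was above every microglial value, and a test with edgeR's quasi-likelihood method and the library as a block gave a log2 difference of 5.07 ± 0.51 (SE, adjusted p = 2.31e-07). Ccl8 was also higher in border macrophages than in monocyte-derived macrophages (log2 5.43 ± 0.43, edgeR adjusted p = 3.98e-06) and than in monocytes (7.65 ± 0.46, edgeR adjusted p = 1.13e-14), where it stood at 6.05 to 25.0 CPM. T cells, which should lack the ligands, had a mean of 17.4 CPM of Ccl8 on day 14, against 16.8 CPM in monocytes. On day 5 the means were 61.1 CPM in T cells (18 UMIs in replicate 1 and 0 in replicate 2) and 7.45 CPM in monocytes. By these means, Ccl8 in monocytes did not stand above the T cell level. NK cells were lower than monocytes, at a mean of 1.86 CPM on day 14 and 3.21 CPM on day 5. B cells had means of 14.6 CPM on day 14 and 7.95 CPM on day 5.

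A single day 14 replicate 2 border macrophage carried 353 Ccl8 UMIs, 52.8% of that library's Ccl8 and 6.26% of the 5640 UMIs of the cell. The same cell held 48 Ccl12 UMIs, 1 Ccl2 UMI and 0 Ccl7 UMIs. With the highest cell of each gene in each class and library left out, an alternative chosen after seeing the data, the border-over-microglia difference of Ccl8 was 3.43 (edgeR adjusted p = 1.05e-07). Shares of cells depend less on such cells: 54.5% and 50% of border macrophages held a Ccl8 UMI on day 14 and 32.3% and 40.0% on day 5, against 3.37% and 9.52% of microglia on day 14 and 6.78% and 6.34% on day 5.

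Ccl7 was likewise highest in border macrophages on average, but not in every library. It stood at 2307 and 152 CPM in border macrophages on day 14 and at 591 and 2092 CPM on day 5. In microglia it stood at 44.8 and 25.8 CPM on day 14 and at 24.5 and 28.8 CPM on day 5. The 2 classes did not overlap, and the log2 difference was 5.17 ± 0.35 (edgeR adjusted p = 6.46e-10). Against monocyte-derived macrophages, with 176 and 364 CPM on day 14 and 77.8 and 89.5 CPM on day 5, border macrophages were higher in 3 of 4 libraries (log2 2.92 ± 0.62, edgeR adjusted p = 0.00657). Without day 5 replicate 2 that difference was 2.22 (adjusted p = 0.0657), so this call rests on that library.

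Ccl2 was present in all phagocyte classes. Border macrophages had 2152 and 784 CPM on day 14 and 877 and 1484 CPM on day 5, and monocytes had 280 and 522 CPM on day 14 and 785 and 266 CPM on day 5. Microglia had 187 and 277 CPM on day 14 and 202 and 219 CPM on day 5. Ccl2 was higher in border macrophages than in microglia (log2 2.42 ± 0.24, edgeR adjusted p = 1.78e-07), monocyte-derived macrophages (2.09 ± 0.35, adjusted p = 0.00136) and monocytes (1.57 ± 0.31, adjusted p = 0.000408). The difference from monocytes had an edgeR adjusted p of 0.0559 without day 5 replicate 2. Monocytes were above microglia in all 4 libraries (0.80 ± 0.22, edgeR adjusted p = 0.0102). Monocyte-derived macrophages differed neither from microglia (0.41 ± 0.19, edgeR adjusted p = 0.138) nor from monocytes (-0.34 ± 0.24, adjusted p = 0.360) beyond the threshold.

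Ccl12 was higher in border macrophages and microglia than in the 2 monocyte-lineage classes. Border macrophages had 2333 and 3695 CPM on day 14 and 1128 and 1704 CPM on day 5, and microglia had 926 and 1080 CPM on day 14 and 775 and 744 CPM on day 5. Monocyte-derived macrophages had 119 and 488 CPM on day 14 and 148 and 94.8 CPM on day 5, and monocytes had 63.9 and 118 CPM on day 14 and 45.8 and 99.2 CPM on day 5. Border and microglial values lay above all values of the 2 monocyte-lineage classes. The log2 difference was -2.26 ± 0.22 for monocyte-derived macrophages over microglia (edgeR adjusted p = 4.64e-06) and -3.62 ± 0.18 for monocytes over microglia (adjusted p = 2.50e-08). Border macrophages were above microglia in 4 of 4 libraries by 1.10 ± 0.17 (edgeR adjusted p = 9.94e-05), which became 0.62 (adjusted p = 0.0519) without the highest cell of each library.

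**Figure D2:**
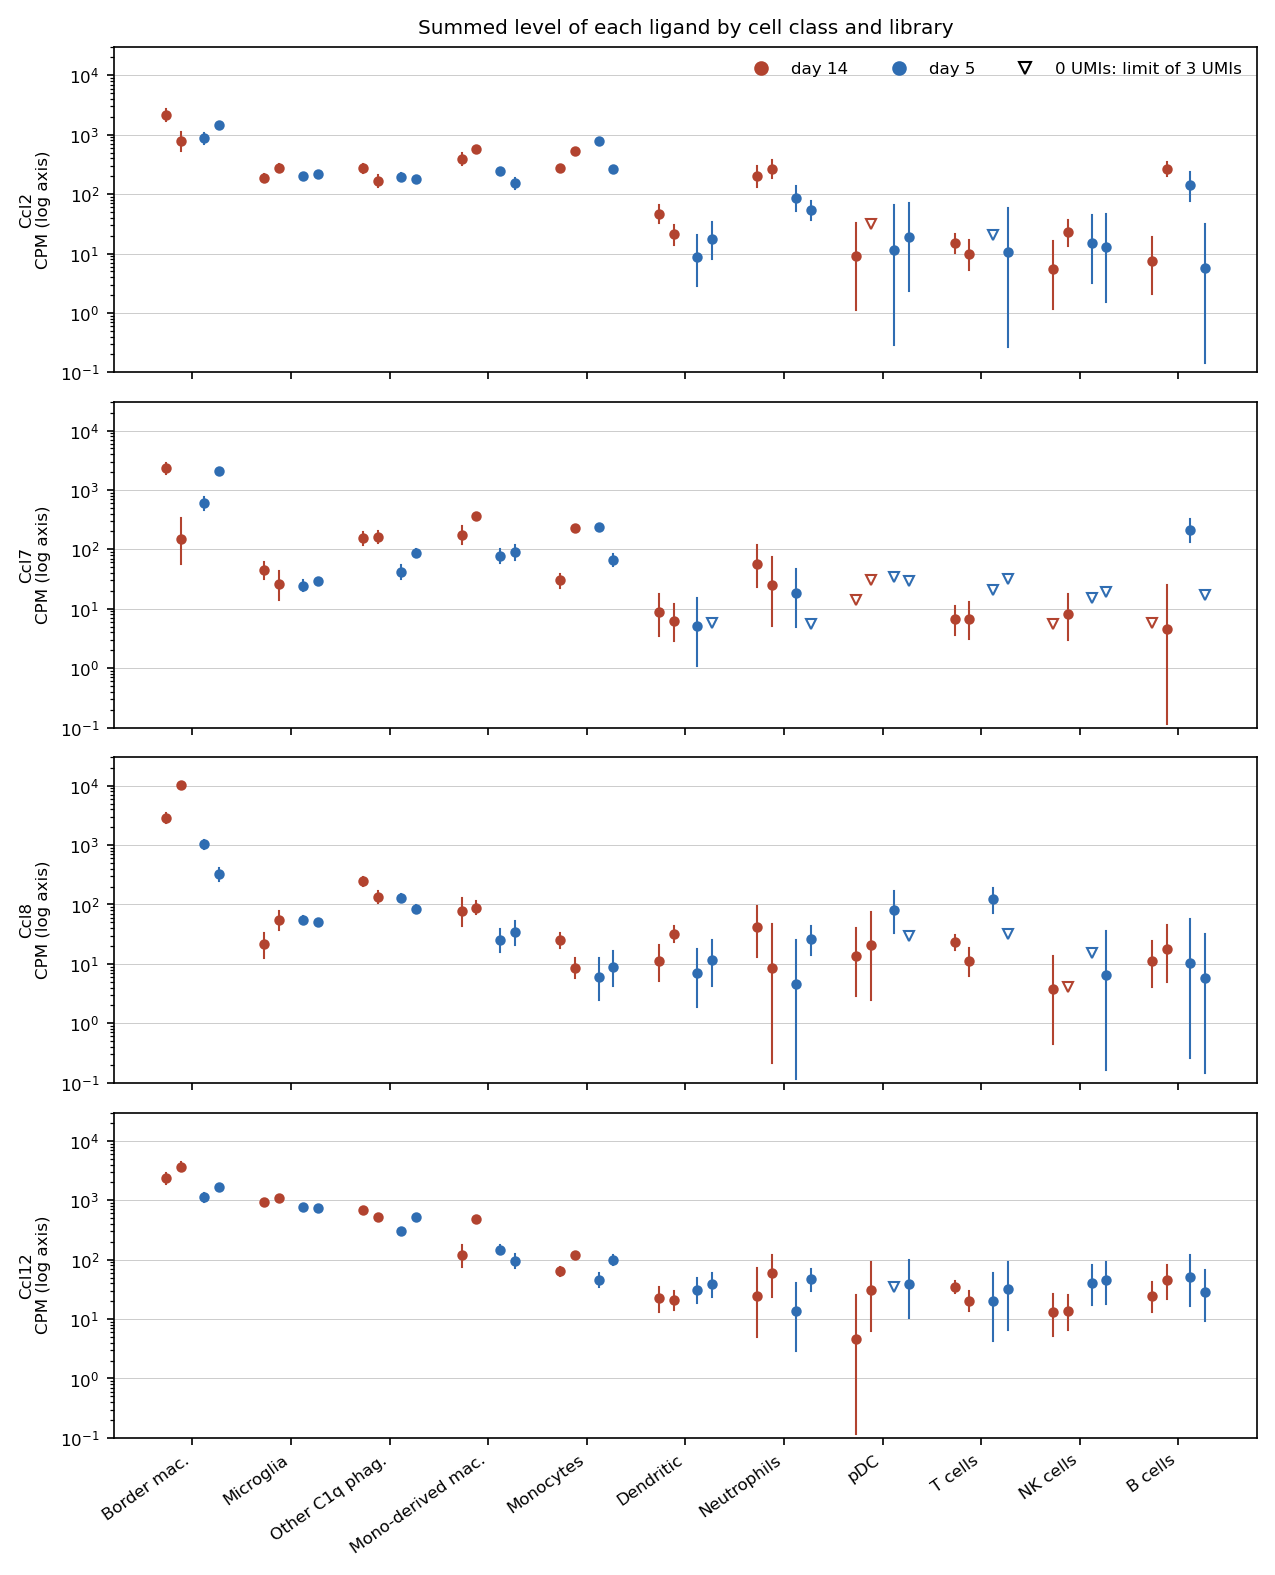
Points give the CPM of each ligand in the summed cells of each class, on a log axis, with 1 point per library (day 14 left of day 5) and exact Poisson 95% intervals that cover counting error only; open triangles mark 0 UMIs at the limit of 3 UMIs. Ccl12 stood at 744 CPM or more in border macrophages and microglia and at 118 CPM or less in monocytes, while Ccl8 ran from 320 to 10123 CPM in border macrophages and at or under 55.4 CPM in microglia.

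All 4 members were called higher in border macrophages in each of the 3 comparisons, where 15.5% of genes passed the threshold in either direction against microglia (7.48% higher), 11.9% against monocyte-derived macrophages (8.45% higher) and 13.7% against monocytes (6.78% higher). In monocytes over microglia all 4 members were called as well, Ccl2 and Ccl7 higher (Ccl7 1.77 ± 0.45, edgeR adjusted p = 0.00777) and Ccl8 and Ccl12 lower (Ccl8 -2.06 ± 0.40, adjusted p = 0.00141), in a comparison that called 42.4% of genes (21.5% higher and 20.9% lower). The Ccl7 call had an edgeR adjusted p of 0.0967 without day 5 replicate 1. Monocyte-derived macrophages over microglia gave 2 calls (Ccl7 2.10 ± 0.24, edgeR adjusted p = 2.09e-05, and the Ccl12 decrease above), with 25.5% of genes called. Monocyte-derived macrophages over monocytes also gave 2, Ccl8 (2.57 ± 0.28, edgeR adjusted p = 4.52e-06) and Ccl12 (1.41 ± 0.24, adjusted p = 0.000351), with 21.7% of genes called. These comparisons share classes, and the gates chose the cells by other genes than the 4 ligands.

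Among the other sorted cells, dendritic cells had 8.63 to 47.0 CPM of Ccl2 and 21.0 to 39.1 CPM of Ccl12, and NK cells had 5.57 to 23.2 CPM of Ccl2. In B cells of day 14 replicate 2, 56 of the 60 Ccl2 UMIs came from 1 cell, and in B cells of day 5 replicate 1, 14 of 14 Ccl2 UMIs and 20 of 21 Ccl7 UMIs came from 1 cell each. Whether such barcodes held more than 1 cell was not tested. Neutrophils had 205 and 268 CPM of Ccl2 on day 14, against 87.4 and 53.8 CPM on day 5, and the day 14 values lay within the 187 and 277 CPM of day 14 microglia.

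The day comparison asks whether the ligands differed between the later and the earlier time after stroke. Over all kept cells, Ccl12 stood at 173 and 179 CPM on day 14, against 350 and 474 CPM on day 5. The days did not overlap, and Ccl12 fell by 1.24 ± 0.17 on the log2 scale (edgeR, day 14 over day 5, adjusted p = 0.00387). The other 3 members were not called over all cells, where 22.3% of genes were called and 11% were called lower. Their unadjusted p were above 0.05, and with DESeq2 none of the 3 was called. Microglia, its main source, made up a smaller share of the cells on day 14. Microglia are known for lower CD45 than blood-derived leukocytes, so a CD45high gate can set how many of them were sorted, and its part in their share was not tested. Over all cells, fewer cells of a class and less RNA per cell cannot be told apart. Within microglia the 926 and 1080 CPM of day 14 lay above the 775 and 744 CPM of day 5 (log2 0.55 ± 0.13, edgeR adjusted p = 0.0546). DESeq2 called this difference (0.54, adjusted p = 0.0284). So did edgeR without a filter on low counts (0.49, adjusted p = 0.0139) and with cells under 1317 UMIs left out (0.54, adjusted p = 0.0453). A crossed pairing of the libraries, chosen after seeing the data, also gave a call (0.54, edgeR adjusted p = 0.00140). Pairing the same-numbered libraries did not (0.54). With 1 library left out the difference ran from 0.42 (without day 14 replicate 2) to 0.66 (without day 14 replicate 1). Such fits leave 1 library in a day, so their p-values, where given below, cannot measure the spread of that day.

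Over all cells Ccl2 stood at 124 and 272 CPM on day 14 and at 239 and 199 CPM on day 5 (log2 -0.15 ± 0.34, edgeR adjusted p = 0.801). Ccl7 stood at 37.3 and 119 CPM on day 14 and at 59.5 and 68.0 CPM on day 5 (0.29 ± 0.47, edgeR adjusted p = 0.698). Ccl8 stood at 45.4 and 63.8 CPM on day 14 and at 55.1 and 46.4 CPM on day 5 (0.10 ± 0.20, edgeR adjusted p = 0.765). The days overlapped for each of these 3 genes, and the direction turned for Ccl2 without day 14 replicate 1, for Ccl7 without day 14 replicate 2 and for Ccl8 without day 14 replicate 2 or day 5 replicate 2. With the highest Ccl8 cell of each library left out, Ccl8 over all cells had a log2 difference of -0.50 (edgeR adjusted p = 0.0327).

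In monocyte-derived macrophages edgeR called all 4 ligands higher on day 14, though the Ccl12 values of the days overlapped. In this comparison 7.12% of genes were called and 5.28% were called higher. Ccl2 stood at 393 and 583 CPM on day 14, against 241 and 154 CPM on day 5 (log2 1.35 ± 0.21, edgeR adjusted p = 5.29e-05). Ccl7 stood at 176 and 364 CPM on day 14, against 77.8 and 89.5 CPM on day 5 (1.85 ± 0.23, edgeR adjusted p = 4.05e-06). For both genes the CPM of the days did not overlap. With any 1 library left out the difference ran from 1.00 to 1.73 for Ccl2 and from 1.13 to 2.14 for Ccl7. By shares of cells, the days overlapped for Ccl7: 9.09% and 33.0% held a UMI on day 14, against 9.56% and 13.7% on day 5, and the 9.09% of day 14 replicate 1 were 3 cells, of which 1 held 52.9% of the UMIs. For Ccl2 the shares were 33.3% and 56.6% on day 14, against 31.6% and 24.5% on day 5, which did not overlap. After thinning to 1000 UMIs they did, with 9.09% and 28.3% on day 14, against 9.70% and 9.09% on day 5.

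The calls of Ccl8 and Ccl12 in monocyte-derived macrophages were less stable. Ccl8 stood at 77.6 and 88.9 CPM on day 14, against 25.5 and 34.0 CPM on day 5 (log2 1.56 ± 0.29, edgeR adjusted p = 0.000543), but 1 cell per library held 60.0% and 73.8% of these UMIs on day 14 and 45.0% and 52.6% on day 5. Without those cells the difference was 0.76 (edgeR adjusted p = 0.439). Ccl12 stood at 119 and 488 CPM on day 14, against 148 and 94.8 CPM on day 5 (1.51 ± 0.31, edgeR adjusted p = 0.00193). The days overlapped for Ccl12, and without day 14 replicate 2 its difference was -0.02 (edgeR adjusted p = 0.985). DESeq2 called neither gene (adjusted p = 0.129 for Ccl8 and 0.999 for Ccl12).

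Other genes of the same gate moved with the day. In monocyte-derived macrophages the summed monocyte markers stood at 42.6 and 55.0 per 10000 UMIs on day 14, against 11.4 and 15.8 on day 5. The lesion phagocyte list of Spp1, Gpnmb, Cst7, Lpl, Itgax and Apoc1 stood at 203 and 243 per 10000 UMIs on day 14, against 63.6 and 53.1 on day 5. Gpnmb of the lesion list is also a gene of this gate. The gate asked for low border and microglial lists, so it set their low level in every library itself. Below that limit, the border list had 1.86 and 1.97 in day 14 libraries, against 3.88 and 4.03 in day 5 libraries. The microglial list stood at 6.42 and 5.28 in day 14 libraries, against 7.94 and 8.68 in those of day 5. The part of these markers in the ligand differences was not tested.

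**Figure D3:**
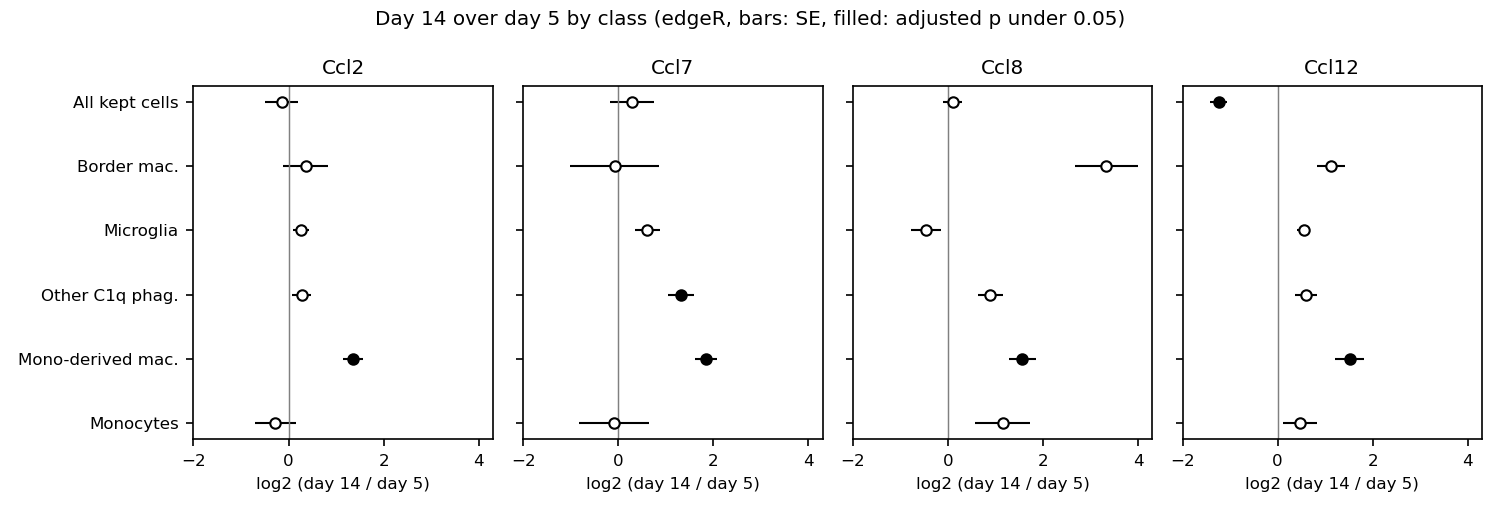
Points give the log2 difference, day 14 over day 5, of each ligand in all kept cells and in 5 classes, with bars of 1 SE from edgeR and filled points for an adjusted p under 0.05 (2 libraries per day). All 4 points of the monocyte-derived macrophages are filled at 1.35 to 1.85, and the all-cell point of Ccl12 is filled at -1.24.

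In the other classes few ligand differences passed the test. In microglia none of the 4 ligands was called by edgeR (log2 0.26 for Ccl2, 0.61 for Ccl7, -0.46 for Ccl8 and 0.55 for Ccl12), while 3.28% of genes were. Ccl7 and Ccl12 had an unadjusted p under 0.05 there, and DESeq2 called Ccl12. Without day 14 replicate 2 the Ccl8 difference in microglia was -1.18. In monocytes none was called by edgeR, with 6.57% of genes called, none had an unadjusted p under 0.05 and DESeq2 called none. Ccl2 stood at 280 and 522 CPM on day 14 and at 785 and 266 CPM on day 5 (log2 -0.28 ± 0.43, edgeR adjusted p = 0.792). Its sign turned without day 14 replicate 1 (0.13, edgeR adjusted p = 0.960) and without day 5 replicate 1 (0.73, adjusted p = 0.00214), and stayed without day 5 replicate 2 (-0.87, adjusted p = 1.05e-05), so the 2 day 5 libraries differed more than the days. In other C1q phagocytes Ccl7 stood at 153 and 161 CPM on day 14, against 41.6 and 87.1 CPM on day 5 (1.32 ± 0.28, edgeR adjusted p = 0.0140, 4.15% of genes called), but 1 cell held 62.9% and 54.2% of it on day 14, and without the highest cells the difference was 0.33 (adjusted p = 0.756). With mixed cells kept it was 0.57 (edgeR adjusted p = 0.497), and without day 5 replicate 1 it was 0.89 (adjusted p = 0.0712). The remaining 3 ligands were not called there by edgeR (Ccl8 and Ccl12 had an unadjusted p under 0.05).

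Neutrophil Ccl2 was higher on day 14, with a log2 difference of 1.60 ± 0.36 (edgeR adjusted p = 0.0161, 16.6% of genes called). It rested on 5 and 8 cells with a UMI on day 14 and on 4 and 10 on day 5, and without day 14 replicate 2 the adjusted p was 0.126. In border macrophages, tested after seeing the data because 1 library held only 8 of these cells, no ligand was called by edgeR, with 0.75% of genes called. Ccl8 stood higher in both day 14 libraries (3.33 ± 0.66, edgeR unadjusted p = 0.00111, adjusted p = 0.0987), and DESeq2 called it (3.33, adjusted p = 0.00183). Without the highest cells the Ccl8 difference was 1.61 (edgeR adjusted p = 0.135). With all cells, the Ccl8 difference was 3.93 and 2.24 with either day 14 library left out, and 4.28 without day 5 replicate 1. Ccl12 also stood higher in both (1.12 ± 0.30, edgeR unadjusted p = 0.00589, adjusted p = 0.253).

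The difference of the day effects between classes was tested directly. The day effect of Ccl2 was larger in monocyte-derived macrophages than in microglia by 1.05 ± 0.21 on the log2 scale (edgeR interaction, adjusted p = 0.0256), and that of Ccl8 by 1.82 ± 0.41 (adjusted p = 0.0413). The comparison called 1.18% of genes. The differences for Ccl7 (1.13 ± 0.38, edgeR adjusted p = 0.240) and Ccl12 (0.90 ± 0.34, adjusted p = 0.306) were not called. The Ccl2 difference was 0.71 (edgeR adjusted p = 0.262) without day 5 replicate 2, and the Ccl8 difference was 1.39 (adjusted p = 0.419) without the highest cells. The Ccl8 difference also lost its call without day 14 replicate 1 (1.41, edgeR adjusted p = 0.0697) and without day 5 replicate 1 (1.53, adjusted p = 0.111). Between monocytes and microglia none of the 4 day effects differed by edgeR (adjusted p = 0.394 to 0.964), with 0.949% of genes called. Ccl8 had an unadjusted p of 0.0291 there.

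By shares of cells with a UMI, microglia also stood above monocyte-derived macrophages for Ccl12. A Ccl12 UMI was found in 62.5% and 61.0% of microglia on day 14 and in 54.4% and 55.1% on day 5. In monocyte-derived macrophages it was found in 30.3% and 50.9% on day 14 and in 19.1% and 27.5% on day 5. Thinning each cell to 1000 UMIs left out 0 and 0 kept cells of day 14 and 185 and 323 of day 5, over all classes. Of these, 39 and 127 were day 5 microglia. The thinned microglial shares were 37.5% and 41.9% on day 14, against 30.3% and 33.1% for day 5. The day 14 shares of Ccl12 lay above the day 5 shares in both classes, thinned or not. An exact permutation test of 2 against 2 libraries cannot give a two-sided p below 0.333, so no share difference could pass.

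Most border macrophages held at least 1 of the ligands. Pooled over libraries, 84.8% of border macrophages had a UMI of any member, against 64.5% of microglia, 56.6% of other C1q phagocytes, 56.5% of monocyte-derived macrophages and 37.2% of monocytes. All 4 ligands were found together in 14 border macrophages (13.3%) and in 11 microglia (0.408%). Depth moves with such counts: in microglia the median was 2799 UMIs for cells with 1 ligand and 7555 for cells with 3, while in border macrophages it was 2323 and 3481.

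**Figure D4:**
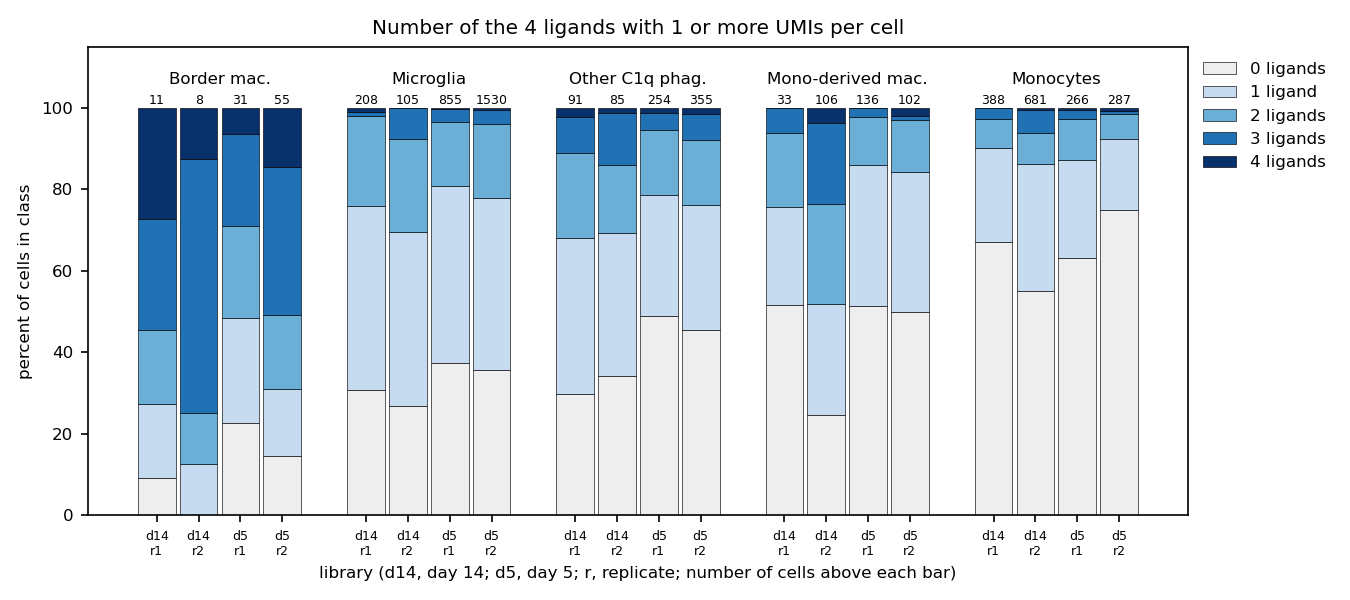
Stacked bars give the percent of cells of each class and library with 0 to 4 of the ligands detected at 1 or more UMIs, with the number of cells above each bar. The 2 darkest bands, 3 and 4 ligands, fill most of the bar in border macrophages of day 14 replicates 1 and 2. They also do so in day 5 replicate 2 (36.4% and 14.5%), but not in day 5 replicate 1 (22.6% and 6.45%). In microglia and monocytes they are a thin strip.

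Pooled over the 5 phagocyte gates, Ccl2 with Ccl7 had the highest ratio of cells with both to cells predicted. There, 319 cells held both, against 151 predicted from the single shares within each class and library, a ratio of 2.11, which was 3.14 after thinning to 1000 UMIs. In monocytes 78.3% of the 138 Ccl7-positive cells held Ccl2, against 22.9% of the Ccl7-negative cells, and in microglia 63.4% of 112, against 22.4%. In border macrophages it was 80.8% of 52, against 41.5%. The cells share libraries and depth, so these ratios are descriptions with no test.

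For the other pairs, over the 5 gates, the ratio after thinning was 1.55 for Ccl2 with Ccl12, 2.10 for Ccl7 with Ccl12, 1.58 for Ccl7 with Ccl8, 1.34 for Ccl8 with Ccl12 and 1.13 for Ccl2 with Ccl8. The order was not the same in every class: in monocytes the thinned ratio was 5.91 for Ccl7 with Ccl12 (19 cells) and 4.75 for Ccl2 with Ccl7 (64 cells), and with all UMIs Ccl7 with Ccl8 (2.85, 12 cells), Ccl7 with Ccl12 (2.83, 56 cells) and Ccl8 with Ccl12 (2.72, 19 cells) stood above Ccl2 with Ccl7 (2.62). In microglia Ccl7 with Ccl8 stood above it both with all UMIs (2.88, 21 cells, against 2.59, 71 cells) and thinned (4.31, 4 cells, against 4.01, 15 cells). The monocyte ratios with Ccl8 rest on a gene that, by day means, did not stand above its T cell level in monocytes. In border macrophages Ccl7 and Ccl8 met in 21 cells, against 21.3 predicted. Single cells showed the range: a day 14 replicate 1 border macrophage held 89 Ccl8 UMIs beside 9 of Ccl7 and 3 of Ccl2, and another of that library held 34 of Ccl7 and 19 of Ccl2 with 0 of Ccl8.

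**Figure D5:**
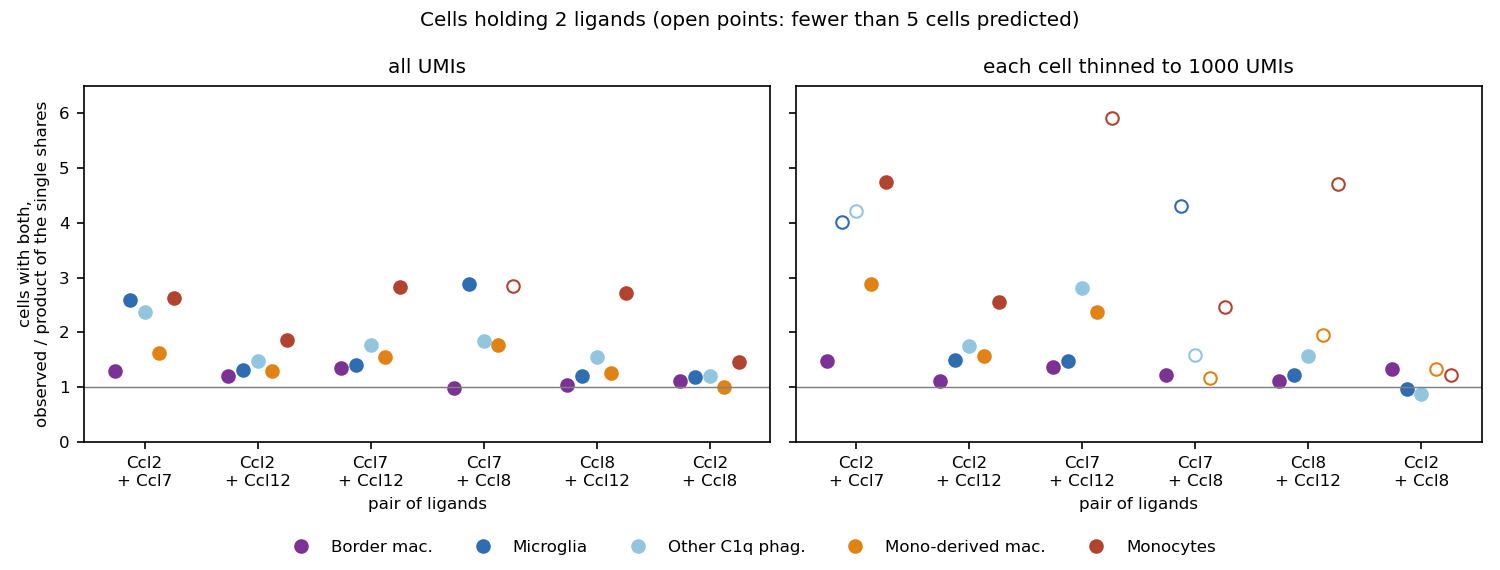
Points give, for each pair of ligands and each class, the number of cells with both divided by the number predicted from the single shares within each library, with all UMIs (left) and with every cell thinned to 1000 UMIs (right); open points have fewer than 5 predicted cells. Ccl2 with Ccl7 stands at 1.30 to 2.62 with all UMIs and reaches 4.75 in monocytes after thinning.

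Microglia with a Ccl2 UMI differed from those without in other inflammatory genes. They had more Cxcl10, an interferon-induced chemokine (mean 246 against 71.7 CPM over the 4 libraries), more Ccl4 (3765 against 2092 CPM) and more Tnf (158 against 77.9 CPM), each in 4 of 4 libraries. Of the 6 lesion phagocyte genes, Spp1, the osteopontin gene, was lower in the positive cells in 4 of 4 libraries (5634 against 9438 CPM), and so was Gpnmb (67.3 against 193 CPM). The other 4 moved in both directions between libraries (ratio of the means 0.986 for Cst7, 1.35 for Lpl, 0.918 for Itgax and 1.03 for Apoc1). In monocytes Cxcl10 was again higher with Ccl2 (578 against 127 CPM), but Spp1 was higher too (3528 against 1083 CPM) and Gpnmb likewise (478 against 145 CPM), each in 4 of 4 libraries. Itgax was lower with Ccl2 in 4 of 4 (23.0 against 50.2 CPM), and the ratio of the means was 0.739 for Cst7, 0.863 for Lpl and 1.37 for Apoc1. Ccl2-positive microglia were deeper (median 4295 to 5580 UMIs, against 2478 to 3168), and Ccl2-positive monocytes were deeper in 3 of 4 libraries (3827 to 4602.5, against 3444 to 4585).

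Ccr2, the receptor of Ccl2, Ccl7 and Ccl12, was highest in monocytes and was higher there on day 14. It stood at 1197 and 974 CPM in monocytes on day 14, against 700 and 810 CPM on day 5 (log2 0.63 ± 0.13, edgeR adjusted p = 0.0230), at 270 to 556 CPM in NK cells and at 21.3 to 66.3 CPM in microglia. Ccr1 was lower in day 14 microglia (-2.03 ± 0.41, edgeR adjusted p = 0.0237). Of 8 listed receptors 4 could be tested in microglia, and 0 rose and 1 fell, where 3.28% of all genes tested were called. In monocytes 4 were tested, and 2 rose and 0 fell, where 6.57% were called. Ccr3, Ccr8, Ackr1 and Ackr2 had 23, 22, 1 and 4 UMIs in all libraries, and Ccl11, the gene inside the cluster, had 1.

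Genes that share inducers with the ligands were counted in the class where edgeR called all 4 ligands higher. In monocyte-derived macrophages, of 14 listed inducers and feedback genes 13 were tested, and 4 rose and 1 fell, where 7.12% of all genes tested were called and 5.28% were called higher, with a median log2 difference of 0.32, against -0.01 over all 5530 genes tested. Those that rose included the interferon-response genes Isg15 (2.70 ± 0.18), Irf7 (2.503 ± 0.17) and Ifit3 (2.06 ± 0.19), and the 1 that fell was Jun (-0.57 ± 0.16). Of 8 other CC ligands 5 were tested and 3 rose, Ccl5 by 3.57 ± 0.22, Ccl9 by 1.12 ± 0.19 and Ccl6 by 0.86 ± 0.25. Isg15, Irf7 and Ifit3 also rose in microglia and monocytes, where no member was called by edgeR. Of the inducers and feedback genes 13 were tested in microglia, monocytes and other C1q phagocytes, of which 5, 6 and 4 rose and 0 fell. There 3.28%, 6.57% and 4.15% of all genes tested were called. In border macrophages 0 of 10 tested rose (0.75% of genes called), and in neutrophils 9 of 13 rose (16.6% called).

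Across 43 summed profiles of classes and libraries, the gene most like Ccl2 among 4617 genes was Ccl7 (Pearson r = 0.887 of log2(CPM + 10)), followed by Ly96 (0.865) and Fcgr2b (0.863). The genes most like Ccl8 were C4b (0.879), Folr2 (0.868) and Mrc1 (0.853), and those most like Ccl12 were Slco2b1 (0.905), Clta (0.897) and Igf1 (0.894). Folr2 and Mrc1 are genes of the border gate. The profiles share libraries and cell types, so these correlations describe where the genes were found. Ccl8 ranked 380 among the genes most like Ccl2, and Ccl12 ranked 69.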

How the data were processed

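Single-cell RNA-seq was measured in 4 libraries, 2 per day. The authors deposited UMI counts per gene and cell barcode, as filtered matrices of whole numbers with no normalization. The submitters' processing notes name Cell Ranger 3.0.1, Seurat 2.3.4 and GRCm38. The headers of the day 5 matrices name a software version and those of day 14 name none, so processing may differ with the day. The lowest UMI totals of barcodes were 1180 and 1317 for day 14 libraries, against 500 and 505 for day 5 libraries.

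Here, barcodes with under 200 genes or over 10% mitochondrial UMIs (84) and barcodes that met gates of different lineages (368, a stand-in for doublet removal; no caller was run) were left out, and 1317 of the kept cells met no gate. Gates were summed marker UMIs per 10000: C1q genes at 64 or more, microglial, border and monocyte lists at 32, macrophage list at 16. Gate limits were set after seeing the marker lists and never from a ligand. The members and lists were chosen with earlier results of these data known. The named genes were the 4 members, fixed lists of receptors, other chemokines and inducers, and the 5 genes most correlated with each member; some listed genes are not reported here.

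Counts were summed per library and class and tested with edgeR 4.0.16 (R 4.3.3; quasi-likelihood F test, TMM, filterByExpr, Benjamini-Hochberg over all genes tested, called at an adjusted p under 0.05); day tests needed 10 cells of the class in every library (8 for border macrophages, chosen after seeing the data), and class comparisons used border sums of 8 or more cells. DESeq2 1.42.0, other filters and gates, thinning to 1000 UMIs (seed 11) and each library left out were alternatives, and scripts were tested on simulated data. A day comparison with a library left out holds 1 library of that day. The p-values and calls of those fits do not measure the spread within that day. Intervals are 95% and cover counting error only. Python 3.11.15 was used for the rest.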

Additional observations from a re-analysis of the deposited data

Results flagged for a closer look

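The day effects of 2 ligands differed between monocyte-derived macrophages and microglia by a test of the difference itself. The log2 difference of the day effects, monocyte-derived macrophages minus microglia, was 1.05 ± 0.21 for Ccl2 (edgeR adjusted p = 0.0256). Ccl2 stood at 393 and 583 CPM in day 14 and 241 and 154 CPM in day 5 monocyte-derived macrophages, and at 187 and 277 CPM in day 14 and 202 and 219 CPM in day 5 microglia. Without day 5 replicate 2 the difference was 0.71 (edgeR adjusted p = 0.262). For Ccl8 the difference of the day effects was 1.82 ± 0.41 (edgeR adjusted p = 0.0413). Ccl8 stood at 77.6 and 88.9 CPM in day 14 and 25.5 and 34.0 CPM in day 5 monocyte-derived macrophages, and at 21.3 and 55.4 CPM in day 14 and 54.9 and 51.3 CPM in day 5 microglia. Without the highest Ccl8 cell of each class and library it was 1.39 (edgeR adjusted p = 0.419), and it also lost its call with mixed cells kept (1.38), without day 14 replicate 1 (1.41) and without day 5 replicate 1 (1.53).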

How the results depend on the processing

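With 2 libraries per day and few ligand-rich cells, single libraries and single cells decided many values. With each library left out in turn, the log2 difference of day 14 over day 5 ran over all cells from -0.86 to 0.33 for Ccl2, -0.81 to 0.91 for Ccl7, -0.20 to 0.35 for Ccl8 and -1.46 to -1.003 for Ccl12. In microglia it ran from -0.039 to 0.54 for Ccl2, 0.09 to 0.86 for Ccl7, -1.18 to 0.21 for Ccl8 and 0.42 to 0.66 for Ccl12. In monocyte-derived macrophages it ran from 1.00 to 1.73 for Ccl2, 1.13 to 2.14 for Ccl7, 1.35 to 1.73 for Ccl8 and -0.025 to 1.97 for Ccl12. In monocytes it ran from -0.87 to 0.73 for Ccl2, -2.25 to 1.16 for Ccl7, 0.37 to 1.83 for Ccl8 and -0.079 to 1.11 for Ccl12. Ccl2 in other C1q phagocytes ran from -0.095 to 0.58, and in border macrophages Ccl2 ran from -0.66 to 0.92 and Ccl7 from -3.23 to 1.11.

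The difference of the day effects, monocyte-derived macrophages minus microglia, ran from 0.71 to 1.46 for Ccl2, 0.20 to 2.03 for Ccl7, 1.41 to 2.60 for Ccl8 and -0.47 to 1.33 for Ccl12 with a library left out. For monocytes minus microglia it ran from -1.24 to 0.45 for Ccl2, -2.93 to 0.84 for Ccl7, 0.17 to 2.99 for Ccl8 and -0.60 to 0.56 for Ccl12. Among the class comparisons, border macrophages over monocyte-derived macrophages ran from 2.22 to 3.79 for Ccl7, border macrophages over monocytes from 1.07 to 1.96 for Ccl2, and monocytes over microglia from 1.08 to 2.33 for Ccl7. Monocyte-derived macrophages over microglia ran from 0.23 to 0.73 for Ccl2 and -0.39 to 0.36 for Ccl8, and over monocytes from -0.62 to 0.10 for Ccl2 and 0.025 to 1.12 for Ccl7.

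Without a filter on low counts, Ccl12 in microglia (0.49, edgeR adjusted p = 0.0139), Ccl8 in monocytes (1.17, adjusted p = 0.0467) and the differences of the day effects of Ccl8 in monocytes (1.71), Ccl7 (1.10) and Ccl12 (0.88) in monocyte-derived macrophages were called. That of Ccl12 in monocytes was 0.00647, and Ccl2 in monocyte-derived macrophages was called against microglia (0.40) and monocytes (-0.42). DESeq2 called Ccl12 in microglia (0.54) and not Ccl8 (1.54) or Ccl12 (1.35) in monocyte-derived macrophages. With mixed cells kept, Ccl8 (1.15) and Ccl12 (0.90) in monocyte-derived macrophages and the Ccl8 difference of day effects (1.38) lost their calls, and Ccl2 in other C1q phagocytes was -0.24. With cells under 1317 UMIs left out, Ccl12 in microglia was called (0.54, edgeR adjusted p = 0.0453).

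Alternatives chosen after seeing the data, as were the crossed pairing and every alternative for the class comparisons, left out the highest cell of each gene in each library. Ccl8 over all cells was then -0.50 (and -0.45 without the highest Ccl8 cell alone), Ccl7 -0.20 in microglia and 0.015 in monocytes, Ccl8 0.76 in monocyte-derived macrophages and Ccl2 -0.11 in border macrophages. The differences of the day effects were 0.071 for Ccl7 and 0.22 for Ccl12 in monocytes, and 2.00 for Ccl7, 1.39 for Ccl8 and 1.59 for Ccl12 in monocyte-derived macrophages. Ccl12 in border macrophages over microglia was 0.62, and Ccl8 in monocyte-derived macrophages over microglia was -1.13. The share of microglia with a UMI differed between days by -0.118 points for Ccl7 and 0.917 for Ccl8 after thinning, and by -0.0134 for Ccl7 at 2 or more UMIs; in border macrophages by -0.810 for Ccl2 at 2 or more UMIs and -10.6 for Ccl7 after thinning. The cause of these changes was not tested.

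The labels do not say whether the replicate numbers pair the libraries. The correlation of same-numbered deviations was -0.333 over all cells, -0.199 in microglia, -0.258 in monocytes and 0.0315 in monocyte-derived macrophages. With 2 libraries per day the deviations of a day mirror each other, so these values cannot show whether libraries were prepared in pairs. With the replicate block, Ccl12 was -1.22 over all cells and 0.54 in microglia, and no call of a member changed over all cells, in microglia, monocytes or monocyte-derived macrophages; in other C1q phagocytes Ccl8 (0.87) and Ccl12 (0.64) were called, and neutrophil Ccl2 (1.60, edgeR adjusted p = 0.0750) was not. The block moved the genes called to 2584, against 2628, over all cells and to 65, against 344, in neutrophils. With the crossed pairing, Ccl12 in microglia was called (0.54, edgeR adjusted p = 0.00140) and 675 genes were called there, against 298.

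Counts of genes called by edgeR moved by over 1.5 times elsewhere: without a filter to 652 in microglia, 499, against 293, in other C1q phagocytes and 974, against 525, in monocytes, and with mixed cells kept to 441 in other C1q phagocytes. DESeq2 called 198 in microglia, 153, against 394, in monocyte-derived macrophages, 171 in other C1q phagocytes, 334 in monocytes and 185 in neutrophils. With a library left out, edgeR called 1488 over all cells without day 5 replicate 2, 473 in microglia without day 14 replicate 2, 226 to 613 in monocyte-derived macrophages, 117 to 503 in neutrophils and 4 to 50, against 8, in border macrophages. Leaving out a day 5 library gave 847 and 825 in monocytes, and leaving out a day 14 library gave 0 by edgeR (866 and 798 at an unadjusted p under 0.05).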
